A study of Mus musculus with 6 samples.

Results

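Histamine, adenosine and prostaglandin E2 reach macrophages as small signals released in inflamed and hypoxic tissue. Several of their receptors couple to the stimulatory G protein Gs, which activates adenylyl cyclase and raises cyclic AMP (cAMP) in the cell. cAMP is broken down by phosphodiesterases such as those of the PDE4 family, and in macrophages it is known to restrain cytokines such as TNF and IL-12. The genes described here are the histamine receptors Hrh1 and Hrh2, the adenosine receptors Adora2a and Adora2b, the prostaglandin E receptors Ptger2 and Ptger4, the phosphodiesterases Pde4b and Pde4d, and Crem, a transcription factor of the cAMP response. All 9 were found by symbol among the 22377 genes of the deposited table, and all 9 passed the filter on low counts that 13884 genes passed. Of the 9, only Hrh1 does not belong to the Gs branch, since it couples to Gq and calcium. The genes were selected on their names and on their measured counts in these wt and ko libraries, whose differences were already known, so every wt against ko value of these genes is given as a description and not as a test.

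The study asked how reduced NPM1, a nucleolar protein, alters tumor-associated macrophages (TAMs). RNA was sequenced from 6 libraries of LLC tumors (Lewis lung carcinoma of the mouse, grown under the skin), 3 labelled wt and 3 labelled ko, the latter also labelled knockdown. In the study's methods the groups are macrophages of Npm1+/+ and of Npm1+/- mice, male and female, 6 to 8 weeks old at implantation and with tumors collected 2 weeks later, and the heterozygous deletion is carried by the whole animal and not by macrophages alone. The methods describe sorted CD45+ CD11b+ F4/80+ cells, whereas the sample labels give tumor tissue as the material and an enrichment for small RNAs in place of the full-length cDNA kit of the methods, which the sources used here do not reconcile, and no other treatment is given for either group. A figure legend of the study gives fewer mice per group than there are libraries, so libraries of 1 group may share an animal, and the SD and p-values over 3 libraries would then be too small. Total counts ranged from 36550775 to 38147320 per library. Npm1, the targeted gene, stood at 142, 380.2 and 381 CPM (the count per 1e+06 counts of the library, scaled by the TMM method) in wt replicates 1, 2 and 3 and at 441, 499 and 343 in ko replicates 1, 2 and 3. A lower Npm1 level was not seen under the ko label (log2 fold change 0.51, standard error 0.36, edgeR adjusted p = 0.436), and directions below are those between libraries as labelled. wt replicate 1 stood apart from the other 5 libraries on the first principal component, which held 67.99% of the variance. It also had the lowest sum of 10 fibroblast markers, at 35.1 CPM against 327 to 771 in the other libraries.

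The sorting and lineage markers of macrophages were present in every library. The summed level of 11 macrophage markers, among them Adgre1, Csf1r and Itgam, ranged from 15057 to 20701 CPM in the wt libraries and from 8815 to 15111 CPM in the libraries labelled ko, and the estimate was negative for 11 of the 11, with log2 fold changes between -0.74 and -0.16. The sum of 9 T cell markers ranged from 35.0 to 141 CPM in wt libraries and from 113 to 329 CPM in libraries labelled ko. That of 10 fibroblast markers ranged from 35.1 to 528 CPM in wt libraries and from 398 to 771 CPM in libraries labelled ko. Most of the fibroblast sum came from Col3a1, with 426 of 528 CPM in wt replicate 2 and 604 of 771 CPM in ko replicate 1. In libraries made from a population of cells, fewer cells of a type and less RNA per cell cannot be told apart. Mast cells and basophils, the classical histamine sources, left little RNA, with a sum of 9 markers found in the table between 9.22 and 14.0 CPM in the 6 libraries. The neutrophil sum, over 10 markers, ranged from 1810 to 2046 CPM in wt libraries and from 798 to 1585 CPM in libraries labelled ko. No marker of these lists was at 0 in all libraries, although Krt19 and Cldn4 of the carcinoma list had at most 3 counts in each.

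The DNA just upstream of Hrh2 and Ptger2, the members whose levels in every library labelled ko lay below every wt library, is shown with that of the start of Pde4b that carries a piece of a cAMP response element. The sequences are the 250 bases before the annotated start in RefSeq (GRCm38.p6, the build that mm10 names), 5′ to 3′ on the plus strand. They lie at chr13:54191883-54192132 for Hrh2, chr14:44987861-44988110 for Ptger2 and chr4:102421305-102421554 for Pde4b. Capitals mark GAGGAA, the core bound by the macrophage factor PU.1, and TGACG, the first part of the cAMP response element TGACGTCA, each on either strand.
Hrh2: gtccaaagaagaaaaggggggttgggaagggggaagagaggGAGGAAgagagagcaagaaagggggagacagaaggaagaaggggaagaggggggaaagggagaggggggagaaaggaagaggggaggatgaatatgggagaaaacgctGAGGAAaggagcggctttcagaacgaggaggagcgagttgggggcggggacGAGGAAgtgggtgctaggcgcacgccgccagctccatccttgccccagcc
Ptger2: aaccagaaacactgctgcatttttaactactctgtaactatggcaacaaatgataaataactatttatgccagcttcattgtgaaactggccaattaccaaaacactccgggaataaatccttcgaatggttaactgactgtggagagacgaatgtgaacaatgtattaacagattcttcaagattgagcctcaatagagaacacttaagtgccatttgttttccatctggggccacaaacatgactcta
Pde4b: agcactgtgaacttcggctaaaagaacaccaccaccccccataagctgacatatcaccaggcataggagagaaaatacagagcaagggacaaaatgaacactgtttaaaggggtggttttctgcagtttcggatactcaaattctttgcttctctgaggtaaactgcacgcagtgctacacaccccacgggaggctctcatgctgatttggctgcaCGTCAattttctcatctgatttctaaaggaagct

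The Hrh2 window is rich in purines and holds GAGGAA 3 times, at positions -209, -101 and -50 from the end of the window at the start, and 3 or more matches were found in 0.43% of the 32851 windows of all genes. At least 1 match was found in 23.25% of all windows and in 6 of the 14 windows of the members. Those 6 belong to Hrh1, Hrh2, Pde4b and Pde4d, with 2 matches in 1 window each of Hrh1 and Pde4b. The 2 windows of Hrh2, which start at 54191883 and 54191879, overlap and hold the same 3 sites, so the 6 are not independent. The Ptger2 window holds none of the motifs searched. RefSeq gave windows for 7 of the 9 genes, 14 windows in all since Hrh1, Hrh2 and Pde4b have several starts. None of the 14 holds the whole element TGACGTCA, which 1.55% of all windows hold, and 1 holds TGACG, as do 17.77% of all windows. A site of the form TTCNNNGAA, to which STAT factors bind, lies in 1 further window of Pde4b, at position -150, and in 7.02% of all windows. These motifs were chosen after the expression values had been seen, and a match of letters is not evidence of binding.

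Per length, the members differed widely in level. In FPKM, which also divides by gene length, Pde4b had the highest mean over the 6 libraries at 104, followed by Adora2b at 74.2, Adora2a at 38.1, Ptger4 at 29.9, Ptger2 at 14.1, Crem at 7.91, Hrh2 at 1.34, Pde4d at 0.824 and Hrh1 at 0.153. The ranges of Pde4b (77.0 to 119 FPKM) and Adora2b (48.6 to 96.3) overlapped, as did those of Hrh2 (0.804 to 2.08) and Pde4d (0.561 to 1.46), while Adora2a (34.5 to 46.1) stayed below Adora2b. Ptger4 (28.6 to 32.0) lay above Ptger2 (9.53 to 19.1) in every library, and Hrh1 lay below all other members in every library. Among the 22377 genes, Pde4b ranked 619 by mean FPKM, Adora2b 867, Hrh2 9632 and Hrh1 13171. Hrh2 was therefore a low transcript beside the adenosine and prostaglandin receptors.

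**Figure D1:**
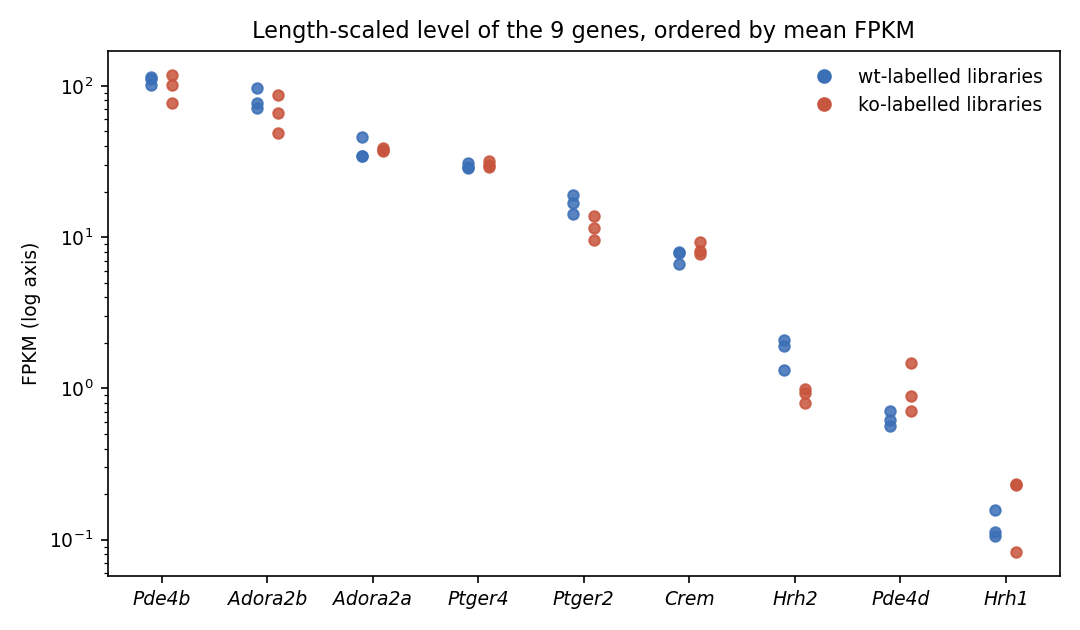
FPKM of each of the 9 genes (log axis) in the wt-labelled and the ko-labelled libraries, 1 point per library, ordered by the mean over 6 libraries. Pde4b and Adora2b lie near the top, with means of 104 and 74.2, and Hrh1 lies at the bottom with 0.153.

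Hrh2 (NCBI Gene 15466, GRCm38 chromosome 13, 54192129 to 54236180, plus strand) encodes the Gs-coupled histamine receptor. Its level was 15.2, 9.67 and 13.2 CPM in wt replicates 1, 2 and 3, from 542, 343 and 494 counts, and 5.24, 5.59 and 6.95 CPM in ko replicates 1, 2 and 3, from 206, 234 and 254 counts. Every library labelled ko lay below every wt library, and the lowest wt library had more than the highest library labelled ko by 9.67 against 6.95 CPM. The means were 12.7 ± 2.82 CPM (SD, n = 3) in wt and 5.92 ± 0.903 CPM (SD, n = 3) in ko, a level 2.14-fold higher in wt, with a log2 fold change of -1.10 (standard error 0.24). It stayed below 0 in all 17 alternatives computed, between -1.27 without wt replicate 2 and -0.53 with limma on log2 FPKM plus 1, a scale on which the change of a low gene is understated. An antisense gene, Gm16578, overlaps Hrh2, and as no source used here gives the strand setting of the counting, reads of both cannot be told apart.

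The level of Hrh2 was also set against the macrophage markers of the same library. Most of the marker sum came from Lyz2, with 14144 of 20701 CPM in wt replicate 1 and 5667 of 8815 CPM in ko replicate 2. Itgam came next, with 2877 and 1492 CPM in these libraries, so the sum mainly follows these genes. Per 10000 CPM of the 11 markers, Hrh2 was 7.36, 5.89 and 8.77 in wt replicates 1, 2 and 3 and 4.55, 6.34 and 4.60 in ko replicates 1, 2 and 3. On this scale the groups overlapped, because ko replicate 2, the library with the lowest marker sum, came above wt replicate 2. With library factors set from these markers in edgeR, an alternative added after the data had been seen, the log2 fold change of Hrh2 was -0.55 (standard error 0.34), while the median of all genes moved by 0.57.

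**Figure D2:**
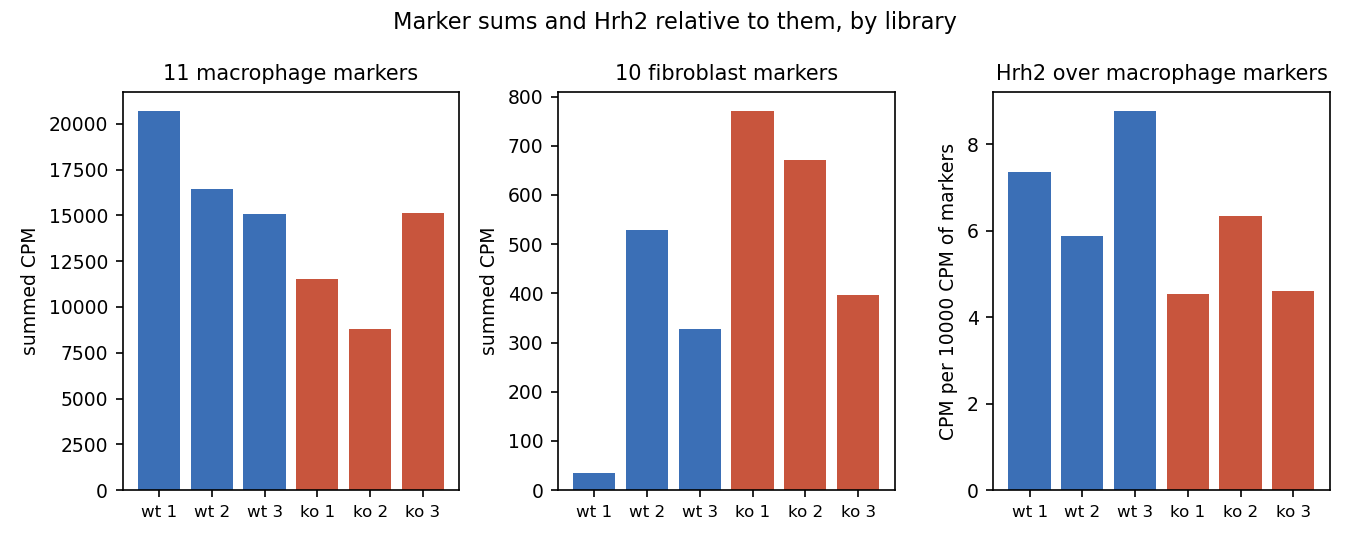
Summed CPM of 11 macrophage markers (left) and of 10 fibroblast markers (middle), and Hrh2 CPM per 10000 CPM of the macrophage markers (right), 1 bar per library, wt in blue and ko in red. The macrophage sum is 8815 CPM in ko replicate 2 and 20701 CPM in wt replicate 1, and the Hrh2 ratio of 6.34 in ko replicate 2 exceeds that of 5.89 in wt replicate 2.

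Hrh1, the Gq-coupled histamine receptor (NCBI Gene 15465, chromosome 6, 114397936 to 114483296, plus strand), was barely detected. It had 15, 14 and 21 counts in wt replicates 1, 2 and 3 and 30, 30 and 11 in ko replicates 1, 2 and 3, or 0.301 to 0.763 CPM. The library with the fewest counts and those with the most were all labelled ko. The exact 95% Poisson interval, which covers counting error only, was 5.49 to 19.7 for the count of 11 and 20.2 to 42.8 for that of 30. The log2 fold change of 0.37 had a standard error of 0.50. These intervals, on unscaled counts, do not meet by a margin of 19.7 against 20.2. They leave out the scaling of the libraries, with TMM factors of 0.969 in ko replicate 3 and 1.05 and 1.15 in ko replicates 1 and 2. Whether libraries of the same label differed beyond counting error is therefore not settled. A difference between wt and ko could not be told from the spread between libraries labelled ko.

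The prostaglandin E receptors EP2 and EP4 both couple to Gs, and their genes differed in how they varied. Ptger2 (NCBI Gene 19217, chromosome 14, 44988195 to 45003820, plus strand) had 65.3, 87.9 and 73.1 CPM in wt replicates 1, 2 and 3 and 47.3, 35.7 and 60.8 CPM in ko replicates 1, 2 and 3. The groups did not overlap, although ko replicate 3 came close to wt replicate 1. The means were 75.5 ± 11.5 CPM (SD, n = 3) and 47.9 ± 12.5 CPM (SD, n = 3). The estimated log2 fold change was -0.66 (standard error 0.21). Without ko replicate 2 it was -0.49, and with edgeR on the 4 libraries other than wt replicate 1 and ko replicate 3 it was -0.96. Ptger4 (NCBI Gene 19219, chromosome 15, 5206661 to 5244187, minus strand) had 104, 102 and 104 CPM in wt replicates 1, 2 and 3 and 91.8, 86.6 and 109.8 CPM in ko replicates 1, 2 and 3. The wt values lay close together and inside the range of those labelled ko. Its log2 fold change was -0.11 (standard error 0.12) and became 0.04 with limma on log2 FPKM plus 0.1. The ratio of Ptger4 to Ptger2 in FPKM was 2.06, 1.50 and 1.83 in wt replicates 1, 2 and 3 and 2.51, 3.13 and 2.33 in ko replicates 1, 2 and 3, so that the balance of the pair lay further toward Ptger4 in each library labelled ko. This ratio is free of library scaling but not of the mix of cells. It was highest in ko replicate 2, which also had the highest T cell sum, at 329 CPM. The part of those cells in the ratio was not tested. Genes on the other strand overlap Ptger2 and Ptger4, with Ttc33 the protein-coding one at Ptger4.

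Per 10000 CPM of the macrophage markers, Ptger2 was 31.6, 53.6 and 48.6 in wt replicates 1, 2 and 3 and 41.0, 40.5 and 40.2 in ko replicates 1, 2 and 3, all inside the wt range. On the same scale Ptger4, Pde4b, Pde4d and Crem were higher in every library labelled ko than in every wt library, and Hrh1, Adora2a and Adora2b overlapped. Pde4d was so on both scales, whereas Ptger4, Pde4b and Crem overlapped in CPM, and Hrh2 and Ptger2 lost the separation they had in CPM. The share of all genes that separate on the marker scale was not computed, so nothing is read from these separations. With library factors set from the markers in edgeR, 92.1% of all genes had a positive estimate, with a median log2 fold change of 0.59.

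Both adenosine receptors raise cAMP when extracellular adenosine accumulates, and the one encoded by Adora2b needs more of it. Adora2a (NCBI Gene 11540, chromosome 10, 75316877 to 75334784, plus strand) had 109, 146 and 103 CPM in wt replicates 1, 2 and 3 and 104, 96.8 and 119 CPM in ko replicates 1, 2 and 3. Adora2b (NCBI Gene 11541, chromosome 11, 62248984 to 62266453, plus strand) had 140.3, 190.3 and 145 CPM in wt replicates 1, 2 and 3 and 116, 78.2 and 164 CPM in ko replicates 1, 2 and 3. In both genes the groups overlapped and wt replicate 2 was the highest library. The log2 fold change was -0.17 (standard error 0.16) for Adora2a and -0.41 (standard error 0.27) for Adora2b. That of Adora2b moved to -0.19 without ko replicate 2 and to -0.83 with DESeq2 on the 4 libraries without wt replicate 1 and ko replicate 3. In FPKM, Adora2b exceeded Adora2a in each library, with a ratio of 2.06, 2.09 and 2.24 in wt replicates 1, 2 and 3 and of 1.79, 1.29 and 2.21 in ko replicates 1, 2 and 3.

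Of the summed FPKM of the 5 Gs-coupled receptors, Adora2b made up between 38.4% and 50.3%, Adora2a between 21.4% and 29.7%, Ptger4 between 15.0% and 23.6%, Ptger2 between 7.53% and 10.4% and Hrh2 between 0.558% and 1.38%. The sum itself was 151, 191 and 161 FPKM in wt replicates 1, 2 and 3 and 144, 127 and 172 FPKM in ko replicates 1, 2 and 3. The sums of the groups overlapped, and ko replicate 2 was the lowest.

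**Figure D3:**
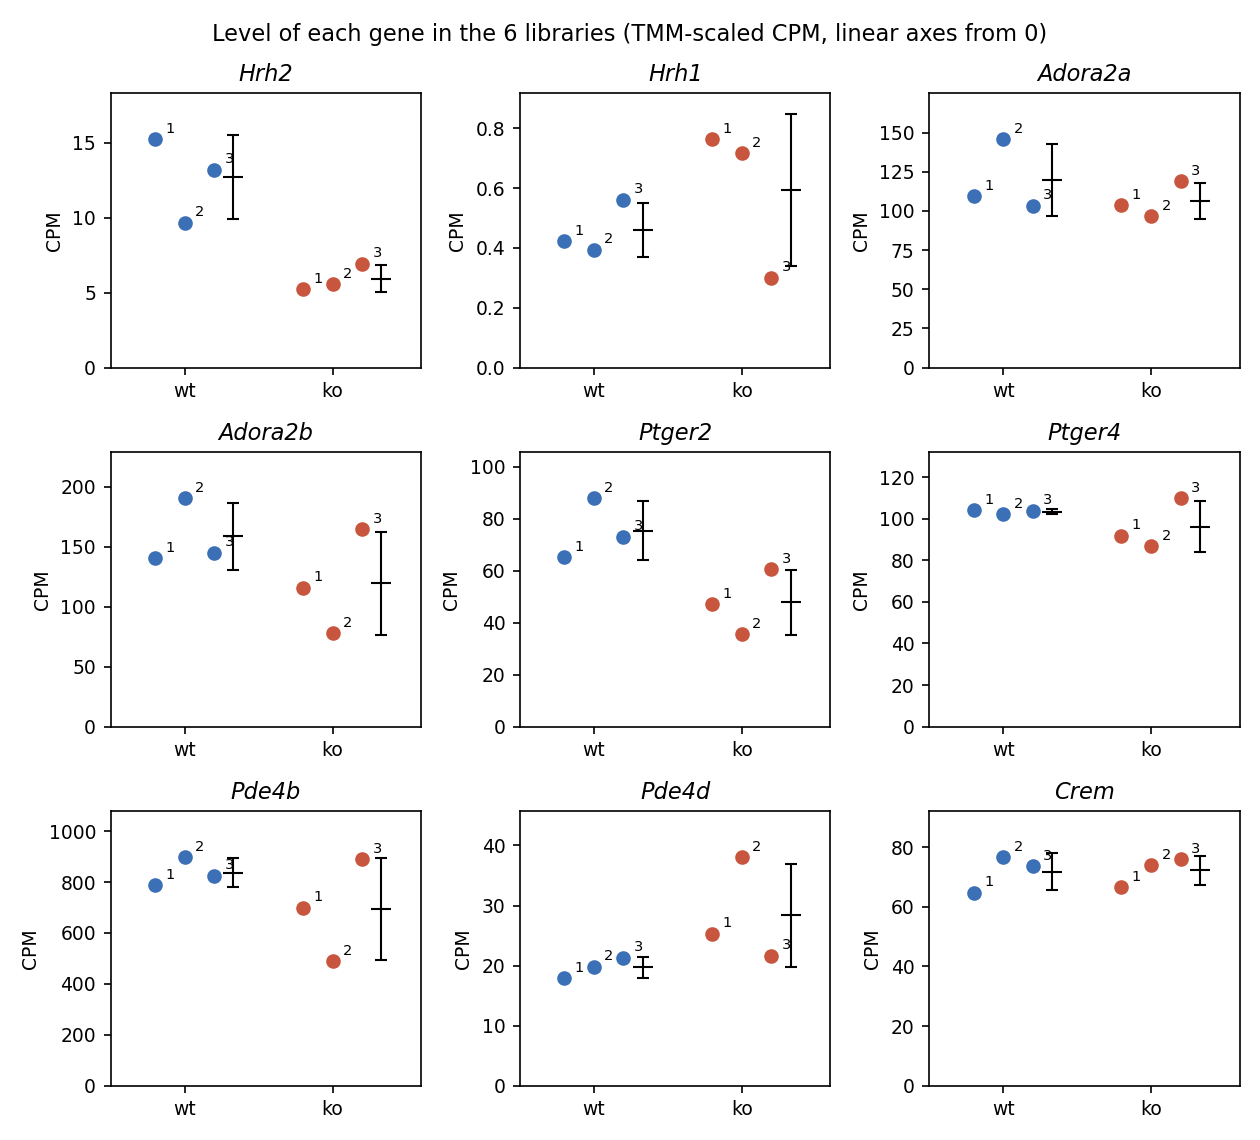
CPM of each of the 9 genes in the wt and ko libraries (linear axes from 0). Points are libraries with their replicate number, and the horizontal mark with its bar is the mean and 1 SD of 3 libraries. The groups are apart for Hrh2 (9.67 to 15.2 against 5.24 to 6.95 CPM) and Ptger2, and just apart for Pde4d, where ko replicate 3 at 21.7 meets wt replicate 3 at 21.3.

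Among the enzymes that end the signal, Pde4b (NCBI Gene 18578, chromosome 4, 102087543 to 102607259, plus strand), the inflammation-induced member of the family, was the most abundant. It had 789, 898 and 825 CPM in wt replicates 1, 2 and 3 and 700.0, 489 and 891 CPM in ko replicates 1, 2 and 3. The groups overlapped, with ko replicate 3 near the top and ko replicate 2 lowest. The estimated log2 fold change was -0.27 (standard error 0.22). Pde4d (NCBI Gene 238871, chromosome 13, 108449948 to 109953461, plus strand) had 17.9, 19.8 and 21.3 CPM in wt replicates 1, 2 and 3 and 25.3, 38.0 and 21.7 CPM in ko replicates 1, 2 and 3. Its groups did not overlap by a margin of 21.7 against 21.3 CPM, while its unscaled counts of 792 in ko replicate 3 and 797 in wt replicate 3 were in the opposite order. The log2 fold change of 0.53 (standard error 0.22) was 0.25 without ko replicate 2. That library also had the highest T cell sum, at 329 CPM, and the fibroblast sum was 671 CPM in it and 771 CPM in ko replicate 1, which had the next highest Pde4d. The sum of the carcinoma list was 184 CPM in ko replicate 2 and 192 CPM in ko replicate 1. The part of these cells in the Pde4d values was not tested.

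Pde4b made up between 94.7% and 97.9% of the summed FPKM of Pde4a, Pde4b, Pde4c and Pde4d. The ratio of Pde4b to Pde4d in FPKM was 180.0, 185 and 159 in wt replicates 1, 2 and 3 and 113, 52.6 and 168 in ko replicates 1, 2 and 3, with ko replicate 3 inside the wt range. Crem (NCBI Gene 12916), which encodes activators and the cAMP-induced repressor ICER, was the steadiest member with Ptger4. It had 64.8, 76.7 and 73.7 CPM in wt replicates 1, 2 and 3 and 66.7, 74.1 and 76.0 CPM in ko replicates 1, 2 and 3. The groups overlapped almost completely, the estimated log2 fold change being 0.01 (standard error 0.12), with 8 of 17 alternatives on the other side of 0. Gene counts do not separate ICER from the longer Crem transcripts. Over the 6 libraries the range of log2 CPM was 0.24 for Crem and 0.34 for Ptger4, against 1.53 for Hrh2 and a median of 0.86 over all genes tested.

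**Figure D4:**
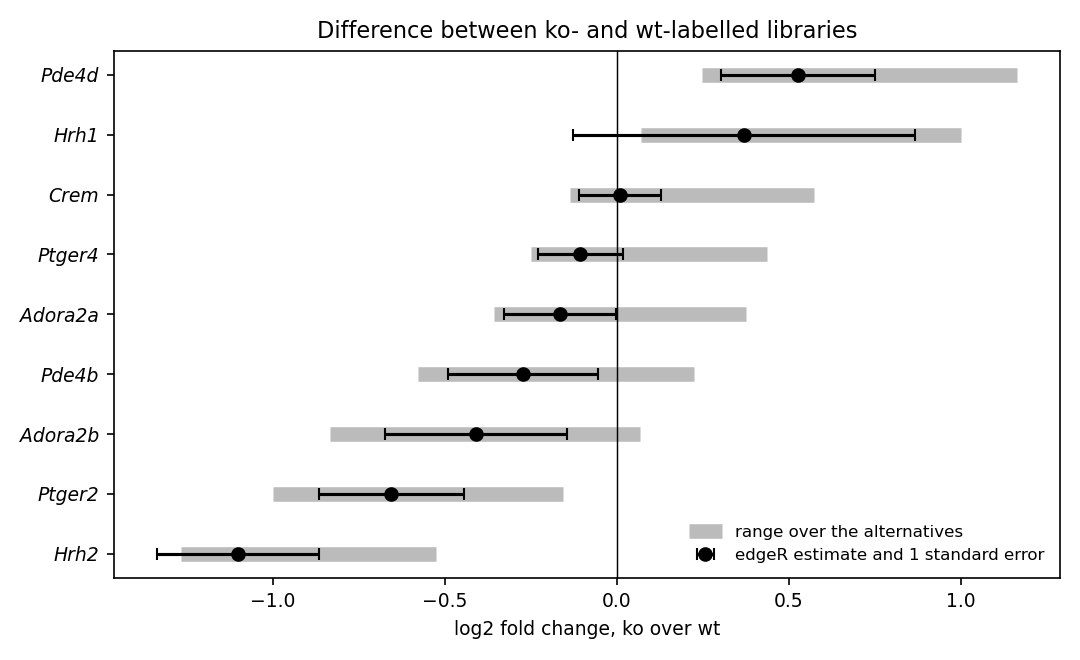
log2 fold change (ko over wt) of each gene, as the edgeR estimate with 1 standard error (black) and the range over the 17 alternatives (grey). Hrh2 at -1.10 and Ptger2 at -0.66 lie below 0, and Pde4d at 0.53 and Hrh1 at 0.37 above, over the whole range, whereas the ranges of Ptger4, Adora2a, Adora2b, Pde4b and Crem cross 0, those of Adora2a, Adora2b and Pde4b only when scaled to the macrophage markers.

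Of the 9 genes, 2 lay lower in every library labelled ko than in every wt library, against 12.6% of all genes tested, and 1 lay higher in every such library, against 13.3% of all genes tested. edgeR called 0 of the 9 at an adjusted p under 0.05, as it did 0% of all genes, and 3 of the 9 had an unadjusted p under 0.05, as did 2112 of the 13884 genes. DESeq2 called 36 of 13699 genes, or 0.263%, with Hrh2 the one member among them. On the 4 libraries without wt replicate 1 and ko replicate 3 it called 1266 of 12492 genes, or 10.1%, with Hrh2, Adora2b, Ptger2 and Pde4b among them. No other pair was left out together. Of the libraries labelled ko, ko replicate 3 (11.7) lay nearest to wt replicate 2 (7.92) on the first principal component. Since the members were chosen with this comparison in view, nothing is read from these counts. The median log2 fold change was -0.17 over the 9 and 0.02 over all genes tested.

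The genes whose pattern over the 6 libraries was most like that of Hrh2 were sought by the root mean square difference of log2 CPM after each gene was centred on its mean. The nearest were Nccrp1 (difference 0.08), Ctse (0.15), Nhsl2 (0.15), Gpld1 (0.16) and Treml2 (0.16), against a median of 0.64 over the 13883 other genes. Ctse, which encodes the aspartic protease cathepsin E, had 12.8 to 19.8 CPM in wt libraries and 6.66 to 10.8 CPM in libraries labelled ko. Treml2, a receptor of the TREM family, had 27.0 to 35.0 and 15.3 to 18.9 CPM. Nccrp1 was low, with 0.70 to 1.15 and 0.38 to 0.55 CPM. Of the members, Ptger2 was nearest to Hrh2, with a difference of 0.41 and rank 1563, and Pde4d farthest, with 0.88 and rank 10288.

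The other genes of the pathway were taken from 10 lists written with earlier results of these data known. They name 133 symbols, of which 126 were in the table and 105 were tested, and edgeR called 0 of the 105, with 19 at an unadjusted p under 0.05 and 0 called by DESeq2 on all 6 libraries. DESeq2 on the 4 libraries without wt replicate 1 and ko replicate 3 called 19. The estimate was positive for 50 and negative for 55, with a median log2 fold change of -0.04. With library factors set from the macrophage markers, named genes such as Hdc (0.15), Adcy7 (0.062) and Gnai2 (0.11) had positive estimates, as the median of all genes moved by 0.57. Below, n is 3 libraries per group and each adjusted p is from edgeR.

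On the supply side, Hdc, which makes histamine, had 329, 366 and 337 CPM in wt replicates 1, 2 and 3 and 326, 172 and 307 CPM in ko replicates 1, 2 and 3 (log2 fold change -0.36, adjusted p = 0.407), the highest library labelled ko just below the lowest wt one. It was thus abundant although mast cell and basophil markers were low. The neutrophil sum was lowest in ko replicate 2, as was Hdc, at 798 CPM against 1575 to 2046 CPM in the other libraries. The part of any cell type in the Hdc values was not tested. Ptgs2, the inducible enzyme of prostaglandin synthesis, varied widely, from 1585 to 3928 CPM in wt and from 1904 to 4483 CPM in ko libraries (log2 fold change 0.02, adjusted p = 0.981), and without wt replicate 1 its estimate was -0.29. Hpgd, which degrades prostaglandin E2, had 5.24 to 15.1 and 3.27 to 4.95 CPM (log2 fold change -1.06, adjusted p = 0.328), with the top value in wt replicate 1, without which the estimate was -0.44. Nt5e, which makes adenosine from AMP, had 17.6 to 25.7 and 27.1 to 33.5 CPM (log2 fold change 0.53, adjusted p = 0.328). Of the 13 tested genes of this list, 7 had a positive estimate.

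Of 9 other receptors listed for the same ligands, 7 were in the table and 3 passed the filter on low counts, and the estimate was negative for all 3. Ptgir, the Gs-coupled prostacyclin receptor, had 9.84 to 18.2 CPM in wt and 5.23 to 9.98 CPM in ko libraries (log2 fold change -0.81, adjusted p = 0.328). Ptger1, which raises calcium, had 1.94 to 6.51 and 1.74 to 2.47 CPM (log2 fold change -0.91, adjusted p = 0.341). Among 20 other receptors listed as able to couple to Gs, 12 were tested, 6 with a positive estimate. Ramp3, a partner of the calcitonin receptor-like receptor, had 82.0 to 105 and 76.0 to 101 CPM (log2 fold change -0.06, adjusted p = 0.828). Mc1r had at most 0.610 CPM in any library (log2 fold change 1.46, adjusted p = 0.329).

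Within the cell, the list of G proteins and adenylyl cyclases had 11 tested genes with a median log2 fold change of 0.00, and the list of other phosphodiesterases had 10 with a median of -0.01. Gnai2, an inhibitory G protein and the highest of the former list, had 1096 to 1402 and 731 to 1117 CPM (log2 fold change -0.42, adjusted p = 0.331), and Gnai3 had 171 to 229 and 230.2 to 252 CPM (log2 fold change 0.21, adjusted p = 0.411). Adcy7, a cyclase of leukocytes, had 133 to 213 and 110.1 to 140.1 CPM (log2 fold change -0.49, adjusted p = 0.328), and Gnal had 0.731 to 1.47 and 1.93 to 3.68 CPM (log2 fold change 1.29, adjusted p = 0.328). Among the phosphodiesterases, Pde7a had 14.1 to 36.3 and 31.7 to 56.4 CPM (log2 fold change 0.77, adjusted p = 0.331), Pde1b 45.8 to 93.3 and 58.7 to 64.2 CPM, Pde3b 70.1 to 79.3 and 62.4 to 82.2 CPM, and Pde8b at most 0.454 CPM. The values of Pde1b and Pde3b overlapped between the groups.

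The 19 effectors and anchors of cAMP were all tested, and 15 had a positive estimate, or 78.9% against 52.1% of all genes, with a median log2 fold change of 0.28 that was 0.11 without wt replicate 1. With the macrophage scaling, 19 of the 19 and 92.1% of all genes were positive. Prkar1a, the regulatory subunit of protein kinase A, had 433 to 524 CPM in wt and 383 to 434 CPM in ko libraries (log2 fold change -0.21, adjusted p = 0.390), and Prkaca, a catalytic subunit, 40.2 to 53.3 and 43.1 to 50.5 CPM. The members with the smallest p were low transcripts. Rapgef3, the cAMP sensor EPAC1, had 0.337 to 1.78 and 2.57 to 5.06 CPM (log2 fold change 1.63, adjusted p = 0.328), and Akap12 had 0.401 to 0.846 and 0.957 to 1.50 CPM (log2 fold change 1.05, adjusted p = 0.328). Rapgef3 was lowest in wt replicate 1 and highest in ko replicate 1. So were the fibroblast sum, at 35.1 and 771 CPM, and the sum of the carcinoma list, at 36.7 and 192 CPM. The part of these cells in the Rapgef3 values was not tested. Of the CREB family and its coactivators, 3 of 9 had a positive estimate. Sik3 had 111 to 129 and 104 to 108 CPM (log2 fold change -0.21, adjusted p = 0.356), Crtc3 136 to 191 and 104 to 156 CPM, and Crtc2 75.6 to 91.0 and 72.1 to 83.0 CPM.

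Among the 8 tested genes of receptor desensitization, 7 had a negative estimate, or 87.5% against 47.9% of all genes, with a median log2 fold change of -0.36, and 3 lay lower in every library labelled ko, as did 12.6% of all genes. The median was -0.12 without wt replicate 1 and 0.18 with the macrophage scaling, under which 2 of the 8 were negative. Arrb1, which encodes β-arrestin 1, had 216, 174 and 189 CPM in wt replicates 1, 2 and 3 and 114, 91.7 and 153 CPM in ko replicates 1, 2 and 3 (log2 fold change -0.69, adjusted p = 0.328). Grk2, a kinase that phosphorylates active receptors, had 383 to 566 and 245 to 357 CPM (log2 fold change -0.59, adjusted p = 0.328). Rgs1 had 576 to 714 and 517 to 676 CPM and Rgs2 217 to 347 and 311 to 361 CPM, overlapping in both. The macrophage marker sum was 11522 and 8815 CPM in ko replicates 1 and 2, below every wt library. In ko replicate 3 it was 15111 CPM, close to wt replicate 3 at 15057 CPM. With library factors set from those markers, the log2 fold changes of Arrb1 and Grk2 were -0.18 and -0.05, while the median of all genes moved by 0.57. The part of macrophage content in the Arrb1 and Grk2 values was not tested.

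Genes that cAMP is known to raise had a negative estimate in 12 of 15, or 80.0% against 47.9% of all genes, with a median log2 fold change of -0.44. Of the 15, 2 lay lower in every library labelled ko than in every wt library, and 2 lay higher. The shares of all genes tested were 12.6% and 13.3%. Without wt replicate 1, the estimate was again negative in 12 of the 15, with a median of -0.30. The list was written with earlier results of these data known, so no direction is read from it. With the macrophage scaling 7 of these 15 were negative, and the median was 0.10 against 0.59 over all genes. Of 5 genes that cAMP is known to lower in macrophages, 4 had a positive estimate, with a median of 0.19, but without wt replicate 1 only 2 did, with a median of -0.06. None passed the test, and none of these genes responds to cAMP alone. Of the former, Cebpb had 1098 to 1772 and 529 to 989 CPM (log2 fold change -0.82, adjusted p = 0.328), and Vegfa had 648, 647 and 641 CPM in wt replicates 1, 2 and 3 and 426, 349 and 563 CPM in ko replicates 1, 2 and 3 (log2 fold change -0.53, adjusted p = 0.328). Thbs1 had 28966 to 37932 and 16419 to 29605 CPM and Dusp1 3163 to 4075 and 1641 to 3222 CPM, with overlap in both. Of the latter, Tnf had 393, 541 and 393 CPM in wt replicates 1, 2 and 3 and 705, 711 and 770.0 CPM in ko replicates 1, 2 and 3. Each library labelled ko thus exceeded each wt library in Tnf (log2 fold change 0.72, standard error 0.16, adjusted p = 0.328). Il12b, a subunit of IL-12, had 6.19 to 9.41 and 9.49 to 13.7 CPM (log2 fold change 0.61, adjusted p = 0.328). Il12a, the other subunit, went the other way, with 3.49 to 8.60 and 2.77 to 3.97 CPM (log2 fold change -0.63, adjusted p = 0.396). Ccl3 and Ccl4 overlapped between the groups, and without wt replicate 1 their estimates were -0.09 and -0.06.

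**Figure D5:**
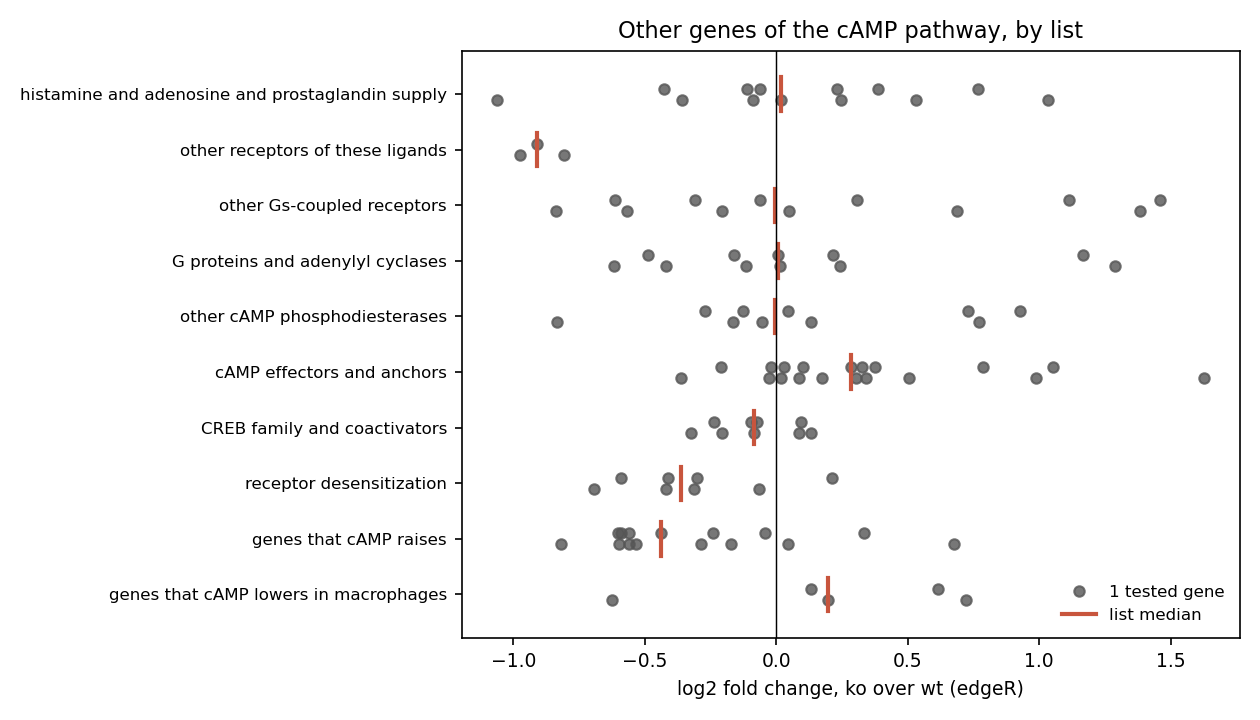
log2 fold change (ko over wt, edgeR) of each tested gene in 10 lists around the cAMP pathway, 1 point per gene, with the list median as a red bar. The medians run from -0.91 for the 3 other receptors of these ligands to 0.28 for cAMP effectors and anchors, and no gene passed the test.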

How the data were processed

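For 6 libraries, the authors deposited unnormalized gene counts and FPKM values. As checked from the values, FPKM is the count over a fixed gene length and the total of the library. mm10 is the genome build in the submitters' processing notes. The aligner, the counting tool and the annotation are not given in the sources used here. Columns were matched to samples by title. Counts were tested with edgeR 4.0.16 in R 4.3.3 (filterByExpr, TMM, glmQLFit and glmQLFTest), with Benjamini-Hochberg adjustment over 13884 genes and a threshold of 0.05. CPM used TMM-scaled library sizes, log2 CPM a prior count of 2, and standard errors were taken as the size of the log2 fold change over the root of the F statistic. As alternatives, DESeq2 1.42.0 was run on counts and limma 3.58.1 on log2 FPKM plus 1 or plus 0.1. The fit was tested on simulated data.

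Members, lists and tests were chosen with earlier results of these data known. Named genes are the members, Npm1, the 2 genes of each list with the smallest p and the 2 with the highest mean FPKM, any past the threshold (there were none), and the 5 nearest to Hrh2. Il12a was added beside Il12b. Some genes that this rule names are not reported here. Pathway lists are histamine, adenosine and prostaglandin supply, other receptors of these ligands, other Gs-coupled receptors, G proteins and cyclases, other phosphodiesterases, effectors and anchors, the CREB family, receptor desensitization, and genes that cAMP raises or lowers. Of the listed symbols, Adrbk1 and Adrbk2 are older names of Grk2 and Grk3. Marker lists are those of macrophages, neutrophils, mast cells and basophils, dendritic cells (217 to 372 CPM in wt and 247 to 343 in ko libraries), T, NK (45.1 to 79.3 and 67.5 to 144) and B cells (6.26 to 36.1 and 11.8 to 58.0), fibroblasts, endothelium (34.7 to 44.5 and 33.4 to 38.0) and epithelium or carcinoma (36.7 to 138 and 130 to 192). Positions are those of GENCODE M21 on GRCm38, matched by symbol. No pairing of the libraries by replicate number was seen, though 3 libraries per group cannot exclude it. The labels call each library a biosample without naming animals, so p-values measure only the spread between these samples, which may be technical. The macrophage scaling and the promoter motifs were chosen after seeing the data.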

Additional observations from a re-analysis of the deposited data

How the results depend on the processing

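With n of 3 per group, the spread between libraries limits what these comparisons can show, also for Hrh1, whose lowest and highest libraries were both labelled ko. edgeR called 0 genes and 0 pathway genes in every edgeR and limma setting. DESeq2 called 36 genes and 0 pathway genes on 6 libraries. Over the fits that leave out libraries, the number of genes ranged from 0 to 1266 and that of pathway genes from 0 to 19, the upper values from DESeq2 without wt replicate 1 and ko replicate 3. The cause was not tested. The estimate of Npm1 stayed above 0 throughout, from 0.16 without wt replicate 1 to 1.10 with the macrophage scaling.

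Genes at an unadjusted p under 0.05 numbered 775 without ko replicate 1, 669 without ko replicate 2 and 3290 without wt replicate 1 and ko replicate 3, against 2112, and pathway genes 5, 2 and 39, against 19. With the macrophage scaling they numbered 5001 and 37. In a fit with replicate block, edgeR called 0 genes, with 1606 at an unadjusted p under 0.05, and Npm1 was at 0.62. Deviations of libraries with the same number correlated at -0.241, 0.06 and -0.337, so no pairing by number was seen. With 3 libraries per group, such correlations cannot exclude one.

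With limma on log2 FPKM plus 1, estimates that changed sign were 0.086 for Ramp3, 0.036 for Pde1b, 0.081 for Pde3b, 0.066 for Crtc2 and 0.078 for Rgs1, and with plus 0.1, which moved the median of all genes by 0.14, they were 0.087, 0.041, 0.086, 0.067 and 0.079. With the macrophage scaling, which moved it by 0.57, they were 0.15 for Hdc, 0.48 for Ramp3, 0.062 for Adcy7, 0.11 for Gnai2, 0.41 for Pde1b, 0.49 for Pde3b, 0.35 for Prkar1a, 0.36 for Sik3, 0.20 for Crtc3, 0.51 for Crtc2 and 0.47 for Rgs1, all below that shift. When 1 library was left out, estimates ranged from -0.37 to 0.26 for Ptgs2, from -0.18 to 0.049 for Ramp3, from -0.39 to 0.12 for Pde1b, from -0.063 to 0.52 for Ccl4, from -0.089 to 0.30 for Ccl3, from -0.16 to 0.029 for Rgs1 and from -0.18 to 0.030 for Pde3b. Without wt replicate 1 and ko replicate 3, edgeR and DESeq2 gave -0.68 and -0.71 for Ptgs2, 0.079 and 0.045 for Pde1b, -0.0013 and -0.041 for Prkaca, 0.040 and 0.0022 for Crtc2, -0.12 and -0.16 for Ccl4 and -0.24 and -0.27 for Ccl3.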
